A study of Mus musculus with 6 samples.

Results

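The solute carrier transporters of the array were taken as all non-control probes whose description names a solute carrier, or whose current gene symbol begins with Slc or Slco, in 3 dye-swapped pairs of arrays. Slc1a2, Slc13a3, Slc10a1, Slc27a5 and Slc40a1 were left out by the rule. This gave 213 of the 20868 probes on the array (210 of 20701 genes, with an unnamed probe counted as 1), 183 of them with a symbol (180 genes) and 30 known only by a description, which are named here by probe ID. A description alone brought in 30 probes, a symbol alone 64, and both 119. Slc9a3r1 and Slc9a3r2, which carry the prefix, encode scaffold proteins that bind transporters and are not carriers themselves.

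The study asked which genes depend on the nuclear receptor CAR, encoded by Nr1i3, and are induced as liver tumours develop. All mice had the C3H/HeNCrlBR background, were 39 weeks old and had received diethylnitrosamine (DEN), a carcinogen that starts liver tumours. Phenobarbital (PB), an activator of CAR and a tumour promoter, was given in the drinking water to every group but 1. The groups were liver of wild-type (WT) mice after DEN and PB, liver of CAR-knockout (CAR-KO) mice after DEN and PB, liver of CAR-KO mice after DEN without PB, and tumour after DEN and PB. The labels call the last a tumour of WT mouse liver, and RNA was total RNA of the tissue. The CAR-KO liver after DEN and PB lies in all 3 pairs. In such samples fewer cells of a type and less RNA per cell cannot be told apart. The labels do not say how many animals were pooled or whether 1 extract served both hybridisations of a pair, so each p-value measures the spread between dye-swapped arrays, which may be technical.

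Solute carriers are membrane proteins that move small molecules by facilitated diffusion, by exchange, or by coupling to gradients of sodium, protons or other ions. In hepatocytes they take up bile acids, drugs, amino acids and fatty acids from the blood, pass glucose in both directions, and exchange metabolites across the mitochondrial inner membrane. Several families, such as the organic cation and anion transporters, supply the substrates on which the drug-metabolising enzymes controlled by CAR act.

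The upstream sequences of 4 genes whose ratios passed the test in tumour are shown because they span the roles described below: lactate, phosphate, bile acid and fatty acid transport. Of the 8 named genes that passed, 5 were found in the promoter table. Those shown are the 250 bases before an annotated start from RefSeq on build GRCm38.p6, written 5′ to 3′ in the direction of the gene, at chr3:104638414-104638663 (plus strand), chr2:129198523-129198772 (plus strand, the first of 2 listed starts), chr8:5105288-5105537 (minus strand) and chr2:126552774-126553023 (plus strand). Capitals mark matches, on either strand, to any of 6 motifs.
Slc16a1: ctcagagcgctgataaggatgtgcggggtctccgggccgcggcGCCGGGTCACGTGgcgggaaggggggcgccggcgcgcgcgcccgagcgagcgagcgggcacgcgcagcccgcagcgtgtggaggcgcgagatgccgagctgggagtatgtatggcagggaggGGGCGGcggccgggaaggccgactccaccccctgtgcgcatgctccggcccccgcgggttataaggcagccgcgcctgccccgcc
Slc20a1: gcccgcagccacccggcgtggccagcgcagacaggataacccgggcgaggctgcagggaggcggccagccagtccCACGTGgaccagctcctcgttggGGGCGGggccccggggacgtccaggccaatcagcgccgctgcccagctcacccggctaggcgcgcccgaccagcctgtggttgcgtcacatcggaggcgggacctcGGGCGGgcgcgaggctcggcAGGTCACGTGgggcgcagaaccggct
Slc10a2: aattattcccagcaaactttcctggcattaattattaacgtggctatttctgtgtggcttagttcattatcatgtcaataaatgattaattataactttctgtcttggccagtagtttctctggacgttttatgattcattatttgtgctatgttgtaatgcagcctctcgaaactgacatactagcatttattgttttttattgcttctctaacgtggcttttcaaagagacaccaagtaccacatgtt
Slc27a2: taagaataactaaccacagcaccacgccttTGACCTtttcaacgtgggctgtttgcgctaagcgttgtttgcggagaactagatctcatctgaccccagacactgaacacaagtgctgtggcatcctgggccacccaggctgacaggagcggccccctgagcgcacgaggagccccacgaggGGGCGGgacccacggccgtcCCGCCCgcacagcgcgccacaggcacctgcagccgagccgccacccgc

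The motifs searched were the nuclear receptor half-site AGGTCA, its direct repeat with 4 bases between (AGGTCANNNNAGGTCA), the antioxidant response core TGACNNNGC, the TCF/LEF site CTTTGAT, the E-box CACGTG and the GC box GGGCGG. Slc16a1 held 1 E-box, which overlapped an antioxidant response core, and 1 GC box. Slc20a1 held 2 E-boxes, of which 1 overlapped a half-site, and 2 GC boxes. Slc27a2 held 1 half-site and 2 GC boxes, and Slc10a2 held none of the 6 motifs. Among 32851 promoters of the same length, 6.02% held the E-box, 14% the half-site, 10.2% the antioxidant response core, 3.21% the TCF/LEF site, 0.0152% the direct repeat and 32.7% the GC box. Among the 184 promoters of members the shares were, in the same order, 11.4%, 14.7%, 12%, 3.8%, 0% and 46.2%. These windows also differed in composition, with 76.4% G and C in Slc16a1, 75.2% in Slc20a1, 64.0% in Slc27a2 and 34.4% in Slc10a2. The median was 52.4% over all promoters and 56.0% over those of members. A match is a description of the letters and not a binding site.

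All 213 probes were tested, and 200 had a channel well above background on all 6 arrays. No member was saturated, and 3 (Slc6a5, Slc25a14 and Slc5a7) had an outlier spot on 1 array of the PB pair, where the fit used the other array. The tumour pair's array 2 had a median local background of 288 in Cy3 and 299 in Cy5, where the other 5 arrays had 53 to 62. Of 8 hepatocyte markers listed, the 3 measured ones (Apoa1, Hnf4a and Ttr) gave signal in every pair and 0 passed the test in any comparison. Ratios are log2 ratios turned to the named direction (n = 2 arrays each), with limma's standard error (SE). The SE comes from the fit on all 6 arrays, which pools the spread over the 3 pairs. A probe with no missing array thus has the same SE in each pair, however far that pair's 2 arrays lie apart. Where 1 array of a pair is left out, that pair's ratio rests on 1 array and its SE on the other pairs. A probe passed where its Benjamini-Hochberg adjusted p over all probes tested was under 0.05. Signals are loess-normalised and on a linear scale that includes an offset of 50, and the ratio of a single array still contains the probe's dye effect.

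WT tumour against CAR-KO liver was the comparison in which solute carriers passed the test. Transporters of glycine (Slc6a9), phosphate (Slc20a1), lactate and pyruvate (Slc16a7 and Slc16a1), bile acids (Slc10a2) and large neutral amino acids (Slc7a5) were 1.95-fold to 3.11-fold higher in tumour. A probe described as similar to an organic anion transporter, a probe described as a glutamate transporter homolog, and the fatty acid transporter Slc27a2 were 1.88-fold to 2.88-fold lower. In all, 7 members were higher (3.29% of 213, against 2.53% of all probes) and 3 were lower (1.41%, against 0.839% of all probes), so both shares lay near those of the whole array. The members' median log2 ratio was 0.0012, with quartiles of -0.25 and 0.26, against a median of -0.0057 and quartiles of -0.25 and 0.22 over all probes. This comparison differs in genotype and in tissue state together, and the 2 cannot be told apart in it.

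**Figure D1:**
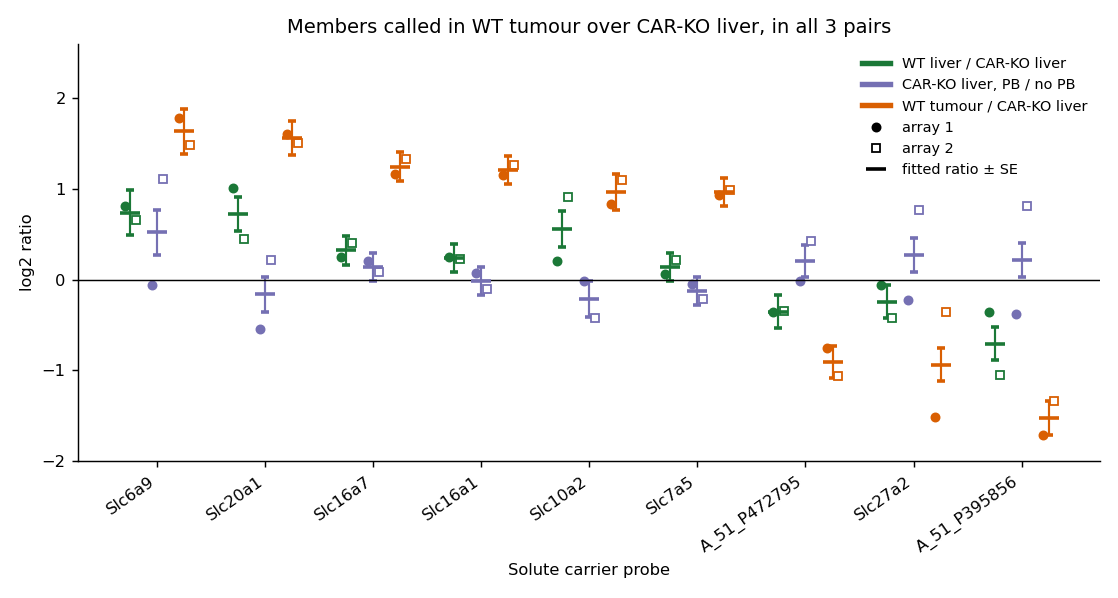
Log2 ratios (y axis) of 9 solute carrier probes that passed in WT tumour over CAR-KO liver (x axis), shown in each of the 3 pairs; filled circles are array 1, open squares array 2, and bars the fitted ratio ± SE. In tumour both arrays lie on the same side of 0 for all 9, and Slc27a2 has the widest gap between its arrays, at -1.51 and -0.36.

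The largest decrease among the members came from probe A_51_P395856, whose description calls its transcript similar to member 7 of family 22, an organic anion transporter. Its signal was 375 and 411 in tumour and 1231 and 1039 in CAR-KO liver. Tumour was lower on both arrays, with a log2 ratio of -1.53 ± 0.18 (-1.72 and -1.34, limma adjusted p = 0.00605), 2.88-fold.

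Slc10a2 encodes the sodium-dependent bile acid transporter of ileum, which cholangiocytes, the cells lining bile ducts, also carry. Its signal was 284 and 443 in tumour and 159 and 207 in CAR-KO liver, and the log2 ratio was 0.97 ± 0.20 (0.84 and 1.10, limma adjusted p = 0.0452). Without array 2 of the tumour pair the log2 ratio was 0.56. The call was lost in 11 of 15 alternatives. Leaving out either array of the WT liver pair gave a limma adjusted p of 0.0651, and of the PB pair 0.129. Among 5 measured cholangiocyte markers Krt19, a keratin of bile duct cells, was higher (1.13 ± 0.16, 1.02 and 1.24), against 2.53% of all probes. The other 4 did not pass. The summed signal of the 5 was 859 to 909 in tumour and 806 to 926 in CAR-KO liver, with 0 of the 5 below background on every array. The part of bile duct cells in the Slc10a2 result was not tested.

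Of the 25 organic anion and cation transporter genes in all, 2 were higher and 1 lower, against 2.53% and 0.839% of all probes. The group had 12 positive ratios and a median of -0.03. Counts by group are small, and no group was tested. Of the Slco genes, which take up bile acids, bilirubin and hormones, 0 passed in the fit on all arrays after loess. Slco1b2, the main such carrier of hepatocytes, had signals of 13058 and 11234 in tumour and 8396 and 9329.8 in CAR-KO liver (log2 ratio 0.45 ± 0.19, limma adjusted p = 0.208), and passed with median centring at 1.16 (limma adjusted p = 0.00802). Slco1a1 had a log2 ratio of -0.68 ± 0.19 (-0.26 and -1.10, limma adjusted p = 0.109), and passed with median centring (-0.71, limma adjusted p = 0.0293). Without array 1 of the tumour pair the ratio of Slco1a1 was -1.04. Its neighbour Slco1a4 had -0.09 ± 0.20. Slco1a5 reached -1.07 on average, but from -2.10 on array 1 and -0.05 on array 2, and passed with median centring (limma adjusted p = 0.0453). Slc22a13, a further family 22 member, lay just outside the threshold (-1.25, from -1.93 and -0.58, limma adjusted p = 0.0505). It passed where signal well above background was asked on all 6 arrays (limma adjusted p = 0.0411). With median centring Slc22a13 also passed (-1.07, limma adjusted p = 0.0376). Slc47a1, which extrudes organic cations into bile, had 0.04 ± 0.15.

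Among amino acid transporters, Slc6a9 encodes a sodium-coupled glycine transporter. Its signal was 2112 and 2032 in tumour and 612 and 725 in CAR-KO liver. Tumour was higher on both arrays, and the log2 ratio was 1.64 ± 0.25 (1.79 and 1.49, limma adjusted p = 0.0155), 3.11-fold. The call held in 11 of 15 alternatives, and limma's adjusted p reached 0.243 on the deposited log ratios.

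Slc7a5 encodes the light chain of an exchanger of large neutral amino acids such as leucine, which reaches the membrane only with the heavy chain Slc3a2. Its signal was 970 and 653 in tumour and 508 and 328 in CAR-KO liver, and tumour was higher on each array (log2 ratio 0.96 ± 0.15, 0.93 and 0.99, limma adjusted p = 0.0190). The heavy chain Slc3a2 had a log2 ratio of 0.37 ± 0.15 (0.33 and 0.41, limma adjusted p = 0.208), and 0.90 with median centring (limma adjusted p = 0.0129). The call for Slc7a5 held in 7 of 15 alternatives, and limma's adjusted p was 0.0707 when a PB array was left out and 0.0522 when a WT liver array was.

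Probe A_51_P472795, described as a homolog of member 7 of the human glutamate transporter family 1, was lower in tumour. Its signal was 521 and 633 in tumour and 877 and 1322 in CAR-KO liver, with a log2 ratio of -0.91 ± 0.18 (-0.75 and -1.06, limma adjusted p = 0.0413). It passed in 5 of 15 alternatives, and without array 2 of the tumour pair the ratio was -0.64. Leaving out a WT liver array gave a limma adjusted p of 0.0864, and leaving out a PB array 0.0857.

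The amino acid and peptide group counted 42 genes, of which 2 were higher and 1 lower, against 2.53% and 0.839% of all probes. It had 19 positive ratios and a median of -0.07. Slc38a3, a sodium-coupled glutamine transporter of hepatocytes, had signals of 1178 and 1507 in tumour and 3119 and 2747 in CAR-KO liver. Tumour was lower on both arrays, and the log2 ratio was -1.14 ± 0.38 (limma adjusted p = 0.144), with an SE that includes the gap between the PB arrays. Without either PB array the ratio was -1.14 ± 0.16 (limma adjusted p = 0.0468), and without array 1 of the tumour pair it was -1.76. Slc3a1, the heavy chain of a cystine and dibasic amino acid transporter, lay just outside the threshold (-0.91 ± 0.20, -1.09 and -0.74, limma adjusted p = 0.0608). Without array 1 of the tumour pair the ratio of Slc3a1 was -1.14. With median centring Slc3a1 had -0.70 and passed (limma adjusted p = 0.0419). Its light chain Slc7a9 had -0.11 ± 0.19. The glutamine carrier Slc1a5 (0.16 ± 0.17), the cystine exchanger Slc7a11 (0.32 ± 0.15), the taurine transporter Slc6a6 (0.41 ± 0.18), the cationic amino acid transporter Slc7a2 (-0.25 ± 0.15) and Slc38a4 (-0.27 ± 0.19) did not pass.

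The monocarboxylate transporters carry lactate, pyruvate and ketone bodies with protons. Slc16a1 had signals of 829 and 976 in tumour and 371 and 406 in CAR-KO liver, and Slc16a7 had 685 and 738 in tumour and 305 and 294 in CAR-KO liver. Tumour was higher on both arrays for each gene. The log2 ratio was 1.21 ± 0.15 for Slc16a1 (1.16 and 1.26, limma adjusted p = 0.00806) and 1.25 ± 0.16 for Slc16a7 (1.17 and 1.33, limma adjusted p = 0.00741), and each passed in 13 of 15 alternatives. Of the 9 genes of families 13 and 16, 2 were higher and 0 lower, against 2.53% and 0.839% of all probes. The lactate exporter Slc16a3 (-0.14 ± 0.16) did not pass.

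Slc20a1 encodes a sodium-phosphate cotransporter found in most cells. Its signal was 572 and 271 in tumour and 187 and 95.2 in CAR-KO liver, with both channels of array 2 the lower. The log2 ratio was 1.56 ± 0.19 (1.61 and 1.51, limma adjusted p = 0.00623), 2.95-fold. The call held in 12 of 15 alternatives, and limma's adjusted p reached 0.134 on the deposited log ratios. Its relative Slc20a2 had -0.18 ± 0.18. Of the 42 genes for bicarbonate, chloride, sodium, proton, phosphate and sulphate transport, 1 was higher and 0 lower, against 2.53% and 0.839% of all probes. Their median was 0.05.

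Slc27a2 encodes a fatty acid transport protein that also activates very long chain fatty acids. Its signal was 189 and 304.5 in tumour and 539 and 391 in CAR-KO liver. Tumour was lower on both arrays but by unequal amounts (log2 ratio -0.94 ± 0.18, from -1.51 and -0.36, limma adjusted p = 0.0413). A fit on the tumour arrays alone gave -0.94 ± 0.32 (limma adjusted p = 0.439). Without array 1 of the tumour pair the ratio was -0.70. Leaving out a WT liver array gave 0.0559 as limma's adjusted p, and leaving out a PB array 0.119. The 5 genes for fatty acid, choline and acetyl-CoA transport had 1 lower and 0 higher, against 0.839% and 2.53% of all probes. They had 0 positive ratios (median -0.58, from -0.94 to -0.05).

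The remaining groups held no member that passed in the fit on all arrays after loess. Of 20 sugar transporter genes 7 ratios were positive (median -0.22). They include the hepatocyte glucose carrier Slc2a2 (-0.36 ± 0.17, -0.35 and -0.37, limma adjusted p = 0.237) and the glucose-6-phosphate translocase Slc37a4, which serves glucose release (signals 1463.5 and 1625 in tumour, 2078 and 2512 in CAR-KO liver; -0.57 ± 0.15, limma adjusted p = 0.0988). With median centring both turned, to 0.23 for Slc2a2 and 0.05 for Slc37a4. Of 22 mitochondrial carrier genes 12 were positive (median 0.03). The ornithine carrier Slc25a15 had -0.56 ± 0.17, and passed with median centring (-0.60, limma adjusted p = 0.0376). The carnitine carrier Slc25a20 had 0.18 ± 0.22. Slc25a17, a peroxisomal carrier with 2 probes, had 0.57 ± 0.19 on the brighter and 0.76 ± 0.17 on the dimmer probe. Both of its probes passed with median centring (limma adjusted p under 0.05). Of 24 genes for nucleosides, nucleotide sugars and vitamins 15 were positive (median 0.19), and of 15 metal transporter genes 9 (median 0.09). The zinc transporter Slc39a9 lay just outside the threshold (-0.76 ± 0.16, -0.72 and -0.79, limma adjusted p = 0.0540). It passed where signal well above background was asked on all 6 arrays (limma adjusted p = 0.0459).

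**Figure D2:**
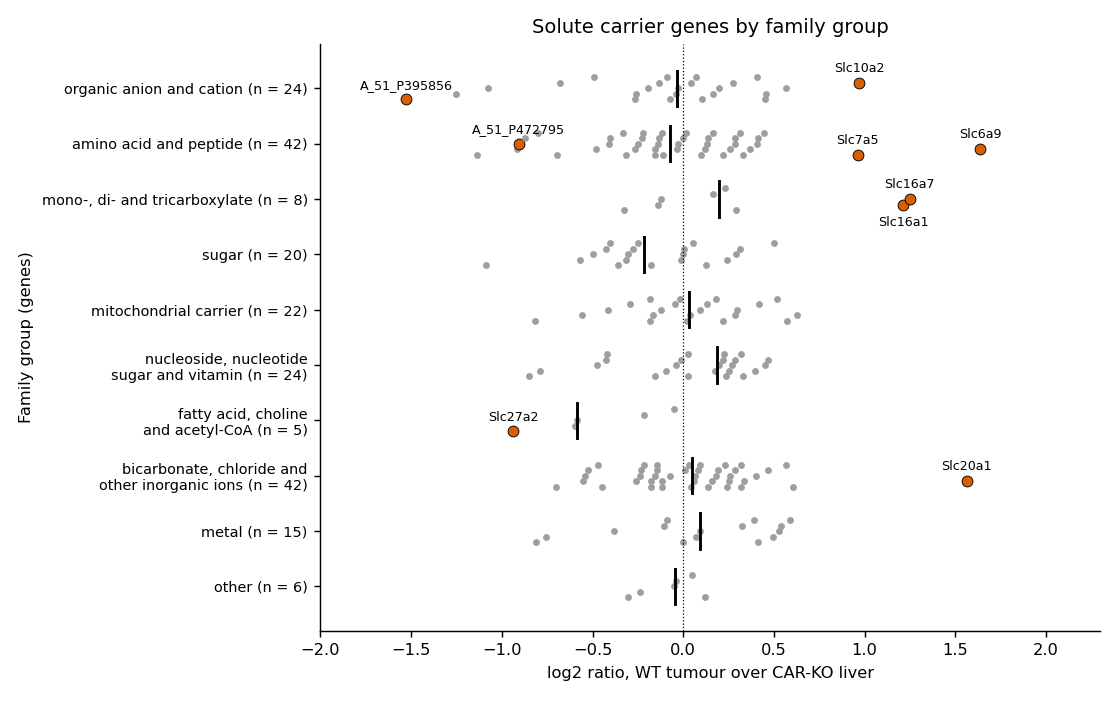
Log2 ratio of WT tumour over CAR-KO liver (x axis) for 208 solute carrier genes or unnamed probes, 1 point each, by family group (y axis); black bars are group medians and labelled orange points passed the test. The lowest median is -0.58, for the 5 fatty acid, choline and acetyl-CoA genes, and that of the 24 nucleoside, nucleotide sugar and vitamin genes is 0.19.

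Proteins that the carriers depend on were read from a list of 24 accessory subunits, scaffolds and sodium pump subunits, of which 14 were measured. In tumour 2 were higher and 0 lower, against 2.53% and 0.839% of all probes, and the list as a whole was not tested. Pdzk1, a scaffold that holds carriers at the membrane, had signals of 1638 and 1593 in tumour and 839 and 671.5 in CAR-KO liver (log2 ratio 1.11 ± 0.19, limma adjusted p = 0.0250). Arl6ip5, a regulator of a glutamate transporter, had a log2 ratio of 0.96 ± 0.16 (0.63 and 1.29, limma adjusted p = 0.0197). The sodium pump subunit genes Atp1b1, Atp1b2 and Atp1b3 and the mitochondrial pyruvate carrier genes Mpc1 and Mpc2 did not pass.

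Both arrays of the tumour pair gave the same sign for 137 of 213 members (64.3%). The 2 arrays differed by more than 1 on the log2 scale for 18 members. On array 1, 18 members had a ratio of -1 or lower, and for 14 of these array 2 lay within 0.5 of 0, among them Slc45a2 (-1.97 and -0.21), Slc25a36 (-1.68 and 0.04) and Slc15a2 (-1.54 and -0.07). These 14 were dim, with a median mean log2 signal of 6.67 against 7.33 over all members. Array 2 is the array with the high local background, and its part in this difference was not tested. Without array 2 the counts became 21 higher (9.86%, against 8.68% of all probes) and 29 lower (13.6%, against 14% of all probes). Without array 1 they became 10 (4.69%, against 2.56%) and 5 (2.35%, against 0.854%). Each of these fits keeps 1 tumour array, so its calls hold no spread between the arrays of the tumour pair. Dropping either WT liver array gave 5 and 1 (against 1.53% and 0.482% of all probes). Dropping either PB array gave 5 and 2 (against 1.05% and 0.323%). With median centring in place of loess the counts were 26 (12.2%, against 11.4% of all probes) and 21 (9.86%, against 8.5%), so that 26 of 47 calls were higher in place of 7 of 10. The rise in calls without array 2 and with median centring was thus seen over the whole array.

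**Figure D3:**
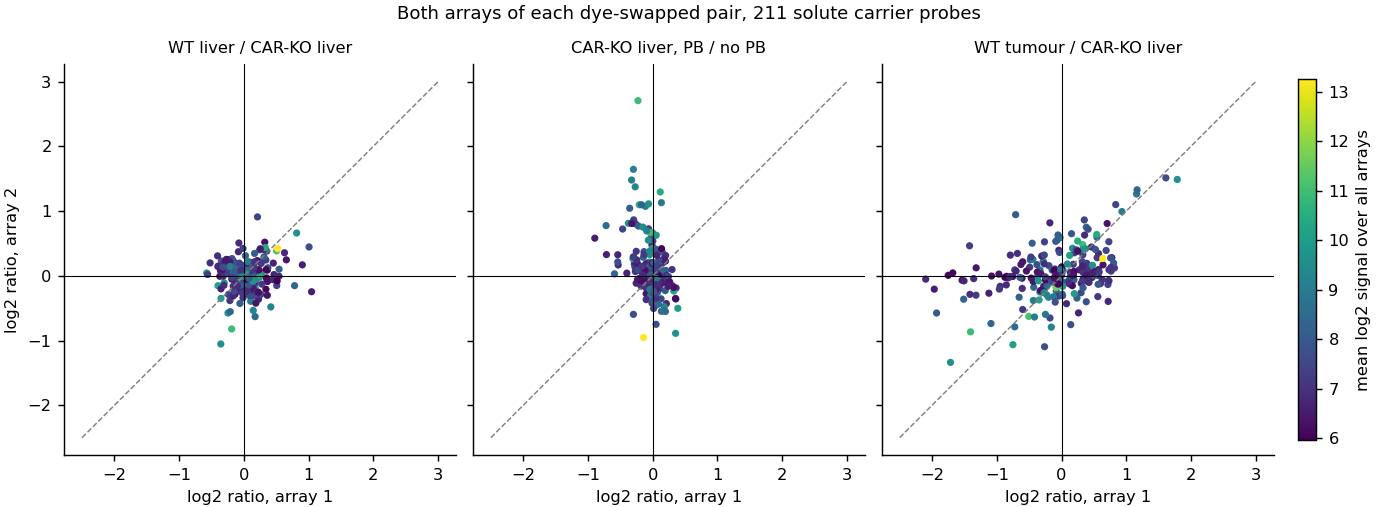
Log2 ratio on array 1 (x axis) against array 2 (y axis) of each pair, 1 point per solute carrier probe, coloured by its mean log2 signal; the dashed line marks equal ratios. In the PB pair 11 probes have a ratio of 1 or more on array 2 with array 1 within 0.5 of 0, and in the tumour pair 14 probes have -1 or less on array 1 with array 2 within 0.5 of 0.

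Some markers of blood and muscle were lower in this comparison, in which 0.839% of all probes were lower. Of the measured stellate, endothelial, macrophage, lymphocyte, pancreatic, adipocyte and kidney tubule markers 0 passed. Of 4 measured erythroid markers 1 was lower, the haemoglobin gene Hba-a1 (-1.09 ± 0.16), with a summed signal of 4934 to 5495 in tumour and 10419.7 to 11317 in CAR-KO liver. Of 4 measured skeletal muscle markers 2 were lower, Tnnc2 (-1.83 ± 0.15) and Mylpf (-1.25 ± 0.15), with a summed signal of 376 to 438 in tumour and 704 to 1130.1 in CAR-KO liver. The part of blood or muscle RNA in the carriers' results was not tested. Slc4a1, the anion exchanger of red cells, had a log2 ratio of 0.19 ± 0.16. Of the genes left out by the rule, Slc13a3 (1.79, limma adjusted p = 0.00423) and Slc1a2 (1.78, limma adjusted p = 0.00242) were higher in tumour, while Slc10a1 (-0.57), Slc27a5 (-0.80) and Slc40a1 (0.04) did not pass.

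Setting WT beside CAR-KO liver, each given DEN and PB, asks which genes depend on CAR outside the tumour. No solute carrier passed (0 higher, against 0.0916% of all probes, and 0 lower, against 0.00964%), and 11 members had an unadjusted p under 0.05 in limma's test (5.16%, against 2.27% of all probes), 9 higher and 2 lower. The members' median log2 ratio was -0.02, the same as over all probes to that precision.

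Among the larger increases were Slc6a9 (0.74 ± 0.25, 0.81 and 0.66), Slc20a1 (0.73 ± 0.19, 1.01 and 0.45), Slc10a2 (0.56 ± 0.20, 0.21 and 0.91) and Slc2a10, a glucose transporter family member (0.54 ± 0.23, 0.90 and 0.17). Of these Slc20a1 passed without either tumour array (limma adjusted p = 0.0452). The largest decreases were probe A_51_P395856 (-0.71 ± 0.18, -0.36 and -1.05), Slc38a3 (-0.51 ± 0.38, -0.19 and -0.82), the mitochondrial carrier probe A_51_P251352 (-0.41 ± 0.16, -0.25 and -0.58), Slc3a1 (-0.38 ± 0.20) and probe A_51_P472795 (-0.35 ± 0.18). None passed in the fit on all arrays. The members that passed in tumour gave small ratios here for lactate carriers (Slc16a1 0.24 ± 0.15, Slc16a7 0.32 ± 0.16), Slc7a5 (0.14 ± 0.15) and Slc27a2 (-0.24 ± 0.18). Slco1b2 had 0.47 ± 0.19 (0.52 and 0.42). Both comparisons are set against CAR-KO liver after DEN and PB and come from 1 fit. The labels do not say whether the same RNA served both. These values thus stand side by side and are not taken as independent of those in tumour.

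The arrays of this pair gave the same sign for 105 of 213 members (49.3%), and differed by more than 1 for 1 member, the renal cotransporter gene Slc12a1 (1.04 and -0.25). Of 4 measured muscle markers Tnnc2 was lower here too (-1.78 ± 0.15, limma adjusted p = 0.00746), and of the cholangiocyte and erythroid markers 0 passed.

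CAR-KO liver with PB against CAR-KO liver without PB asks what PB does when CAR is absent. No member passed (0 higher, against 0% of all probes, and 0 lower, against 0%), with 7 at an unadjusted p under 0.05 in limma's test (3.29%, against 2.72% of all probes), 6 higher and 1 lower. The smallest adjusted p among the members was 1. The 2 arrays gave the same sign for 72 of 210 members (34.3%) and differed by more than 1 for 19.

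The widest such gap was in Slc38a3. Its signal was 2366 and 2212 with PB and 2770.4 and 339 without PB, so that its log2 ratio of 1.24 ± 0.38 came from -0.23 on array 1 and 2.71 on array 2. In all, 11 members had a ratio of 1 or more on array 2 with array 1 within 0.5 of 0, among them Slc25a10 (-0.33 and 1.48) and Slc25a3 (-0.27 and 1.37), which carry dicarboxylates and phosphate into mitochondria, Slc39a4 (0.12 and 1.29), a zinc importer, and Slc6a12 (0.13 and 1.13), a betaine transporter. These 11 were bright, with a median mean log2 signal of 9.26. The hepatocyte marker Apoa1 had ratios of -0.40 and 2.79, and the summed signal of the 3 hepatocyte markers without PB was 2861 on one array and 10568 on the other, against 8439 and 9243 with PB. The part of array 2 in these values was not tested. All 4 measured muscle markers had positive ratios here and 0 passed, with Tnnc2 at 1.78 ± 0.15 (1.98 and 1.58, limma adjusted p = 0.0937), Mylpf at 0.89 ± 0.15 and a summed signal of 849.6 to 1056 with PB and 444 to 474 without. Muscle signal was thus the higher in the CAR-KO liver given DEN and PB in each of the 3 pairs that share it, and its part in the carriers' ratios was not tested.

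Of the genes that the 2 arrays placed on the same side, Slc39a4 (0.71 ± 0.23) and Slc6a12 (0.63 ± 0.22) were the highest, followed by the urea transporter Slc14a2 (0.34 ± 0.19), the potassium-chloride cotransporter Slc12a7 (0.33 ± 0.17) and the noradrenaline transporter Slc6a2 (0.28 ± 0.15). Slco1b2 (-0.55 ± 0.19, -0.14 and -0.95) and Slco1a1 (-0.45 ± 0.19, -0.30 and -0.60) were the lowest, followed by Slc7a12 (-0.23 ± 0.18), Slc10a2 (-0.22 ± 0.20) and the renal phosphate cotransporter Slc34a1 (-0.19 ± 0.19). The lactate carriers Slc16a1 (-0.02 ± 0.15) and Slc16a7 (0.14 ± 0.16) and the light chain gene Slc7a5 (-0.13 ± 0.15) also had ratios within 0.5 of 0 on both arrays.

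WT tumour and WT liver shared no array, so they were compared through CAR-KO liver by subtracting one fitted ratio from the other. No member passed (0 higher, against 0% of all probes, and 0 lower, against 0%), and 15 had an unadjusted p under 0.05 in limma's test (7.04%, against 8.37% of all probes). Among the larger differences on the tumour side were Slc16a1 (0.97 ± 0.22, limma adjusted p = 0.327), Slc16a7 (0.93 ± 0.22), Slc6a9 (0.90 ± 0.35) and Slc20a1 (0.84 ± 0.27). On the liver side stood Slc22a13 (-1.19 ± 0.37), the zinc transporter Slc30a7 (-1.10 ± 0.28) and Slc45a2 (-0.92 ± 0.45). Probe A_51_P395856 (-0.82 ± 0.26) and the peptide transporter Slc15a2 (-0.75 ± 0.41) stood there too. Outside the naming rule and chosen for their values were Slc25a36 (-0.88 ± 0.38) and Slco1a5 (-0.85 ± 0.48). In the tumour pair Slc30a7, Slc45a2, Slc15a2, Slc25a36 and Slco1a5 had -1 or lower on array 1 and within 0.5 of 0 on array 2. Over the alternatives the difference changed sign for Slc45a2 (at most 0.007) and Slc15a2 (at most 0.075). Without array 2 of the tumour pair 5 members were higher (2.35%, against 2.06% of all probes) and 14 lower (6.57%, against 8.39%). Among the 5 were Slc6a9, Slc20a1, Slc16a1 and Slc39a3, named after their values were seen, and among the 14 were Slc22a13, Slc30a7, Slc45a2 and Slc15a2. Without array 1 of that pair Slc12a1 had a difference of -1.25. Each of these fits keeps 1 tumour array, so its calls hold no spread between the arrays of the tumour pair.

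**Figure D4:**
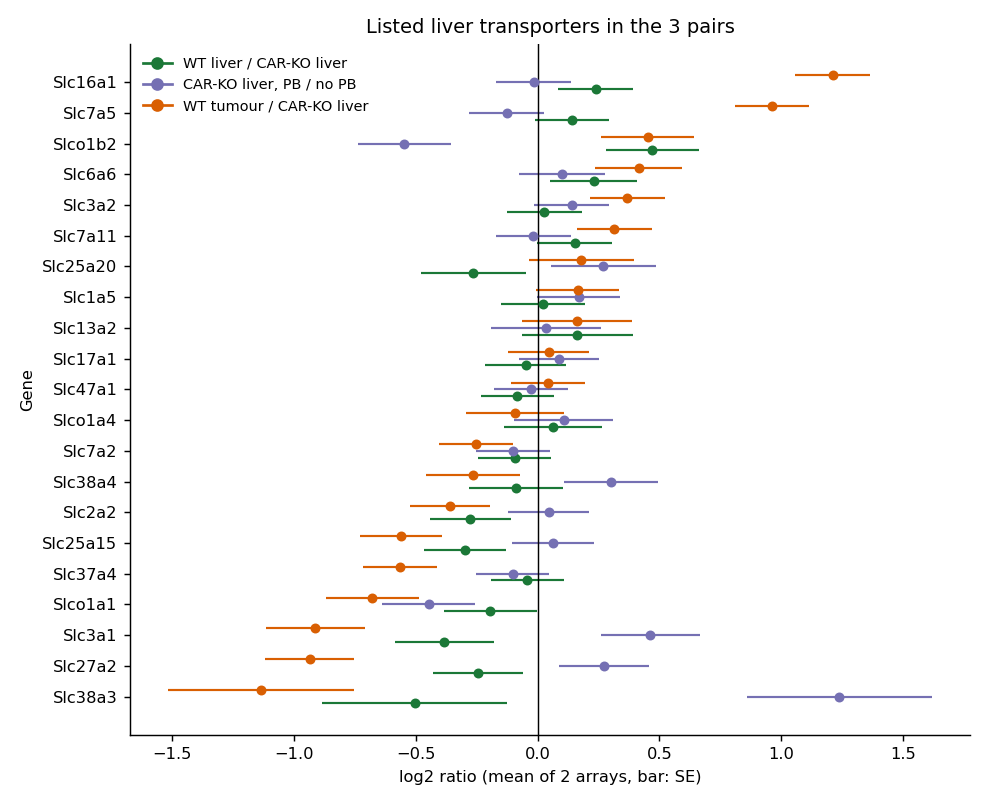
Log2 ratios (x axis, points) with SE (bars) of 21 measured liver transporters (y axis) in the 3 pairs, ordered by the tumour ratio. Slc16a1 and Slc7a5 head the order in tumour at 1.21 and 0.96, and Slc38a3 spans from -1.14 in tumour to 1.24 in the PB pair.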

How the data were processed

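RNA of mouse liver and liver tumour was measured on 6 Agilent 2-colour arrays. The deposited scanner files hold, per the file headers, the mean signal and local background of each spot as intensity values without normalization, and a processed red over green log10 ratio made by the authors in the Agilent Feature Extraction software. The headers give version 7.1.1 for 5 arrays and 7.5.1 for array 2 of the tumour pair, and the submitters' processing notes give 7.5. The deposited value table equals that log10 ratio spot by spot (largest difference 0), and the labels give the dye direction.

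Intensities were corrected with normexp (offset 50), normalised by loess within each array, averaged over spots of a probe and fitted with limma 3.58.1 in R 4.3.3, with a dye effect and 3 contrasts over all 6 arrays (2 residual and 5.48 prior degrees of freedom). Outlier spots were set missing and control spots left out. Probes were tested if 2 or more arrays had either channel well above background (20744 probes). The number of arrays limits the precision. Of 20868 probes, 9962 had 1 symbol by accession or description and 10906 had none. The script was tested on simulated data.

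The members, groups and lists were chosen with earlier results of these data known. Named genes were the members that passed with 1 sign on both arrays, else the 5 largest in each direction, and 32 liver transporters, of which 22 were measured. Members named outside this rule, such as Slc39a9, Slco1a5 and Slc16a3, were not chosen by a set rule. The brightest probe stood for a gene. Gene order and promoters came from RefSeq tables on GRCm38.p6, and the only coordinates given are those of the promoters on that build. Some members are counted but not reported here by name or in the plots.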

Additional observations from a re-analysis of the deposited data

How the results depend on the processing

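Over 15 alternatives to the processing, the sign of all 10 members that passed in WT tumour over CAR-KO liver was kept in each. Of the listed liver transporters named there, Slc2a2, Slc37a4, Slc38a4, Slco1a4, Slc25a20, Slc1a5 and Slc47a1 changed sign in at least 1 alternative without passing. The sign of other genes named there was not followed over all alternatives. Percentages in brackets here are the shares of all probes. The 7 higher and 3 lower members (2.53% and 0.839%) became 4 and 1 with a normexp offset of 16 (1.18% and 0.212%). They became 0 and 0 on the deposited log10 ratios (where 0 of all probes passed). Median centring gave 26 and 21 (11.4% and 8.5%), and array weights 4 and 1 (0.954% and 0.202%). A fit on the tumour arrays alone gave 1 and 0 (0.255% and 0.0434%). Asking for signal well above background on all 6 arrays gave 7 and 5 (3.12% and 1.11%). Leaving out 1 array at a time gave 5 to 21 higher and 1 to 29 lower. In WT over CAR-KO liver 1 member was higher with array weights (0.304%) and 1 on the pair's arrays alone (0.333%). There, leaving out a tumour array gave 2 higher (0.366%), and a PB array 0 (0.0386%). In the indirect comparison 1 was higher with median centring (0.227%), and leaving out 1 array gave 0 to 5 higher and 0 to 14 lower. With PB in CAR-KO liver 0 members passed under any alternative. Counts were within 1.5 times without background subtraction, without the filter on dim probes and without the dye effect. Array weights were 1.59, 1.25 and 0.503 for the WT liver, PB and tumour pairs. The fit on signals as in the deposited value table was not run apart, since that table is identical to the deposited ratios. Dim probes limit what can be seen, since the offset and background shrink their ratios. No paired analysis was possible because the labels carry no replicate numbers, and those used here only name the arrays.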
